A study of Homo sapiens with 12 samples.

Results

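Notch signalling genes were described in spheroids of SBC3, an established human small cell lung cancer cell line, across 4 treatment groups. A list of 10 symbols gave the genes, matched by identifier and symbol among the 60649 genes of each library. The list holds 3 receptors (NOTCH1, NOTCH2 and NOTCH3), 3 ligands (JAG1, JAG2 and DLL1) and 4 target genes (HES1, HES4, HEY1 and NRARP). All 10 passed the filter on low counts that left 16683 genes for testing. RNA of 12 libraries was sequenced, 3 per group: SBC3 spheroids labelled as control, spheroids given teriflunomide, spheroids given lurbinectedin, and spheroids given both drugs, called the combination below. Teriflunomide inhibits DHODH, an enzyme of pyrimidine synthesis, and lurbinectedin binds DNA and blocks transcription. The series concerns whether teriflunomide and its parent drug leflunomide act together with chemotherapy in this cancer, and the labels give no dose or exposure time. All groups come from 1 cell line. Nothing says that the libraries of a group came from separate cultures, so each p-value measures the spread between these libraries, which may be technical.

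Notch receptors sit in the cell membrane and are activated by ligands of the Jagged and Delta-like families on a neighbouring cell. A bound receptor is cut by the protease ADAM10 and then by gamma-secretase, which frees an intracellular domain that enters the nucleus. There it joins the DNA-binding protein RBPJ and a Mastermind-like coactivator and switches on genes such as the HES and HEY repressors and the feedback inhibitor NRARP. In small cell lung cancer, active Notch is known to oppose the neuroendocrine state, which the inhibitory ligand DLL3 marks.

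Total counts per library ranged from 23206414 to 33222162. Transcripts of the mitochondrial genome took 6.26% to 7.17% of counts in the control libraries and 13.8% to 17.0% with lurbinectedin. They took 22.6% in teriflunomide replicate 3 and 24.9% in combination replicate 2, against 8.42% and 8.43% in the other teriflunomide libraries and 13.1% and 14.6% in the other combination libraries. Results that change without these 2 libraries are given in both forms. Of the markers of small cell lung cancer subtypes, POU2F3 had at most 10 counts in any library, while YAP1 was at 236 to 259 CPM in the control libraries and 60.2 to 72.2 CPM with lurbinectedin. CPM are counts scaled to a common library size, here the TMM effective size. Of 9 neuroendocrine markers, 5 stayed under 10 counts in every control library, and the 9 summed to 59.7 to 61.5 CPM there and to 107 to 116 CPM with lurbinectedin. The 4 epithelial markers, of which 3 stayed under 10 counts in every control library, summed to 236 to 252 CPM in control and 400.1 to 433 CPM with lurbinectedin. Lists of immune and endothelial markers summed to under 1 CPM in every library, while the 5 fibroblast markers summed to 520.1 to 549.9 CPM in control and 187 to 221 CPM with lurbinectedin, mostly through COL1A1 and COL1A2. The part of these marker levels in the results below was not tested. In bulk RNA, fewer cells that express a gene and less RNA of it per cell cannot be told apart.

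Under lurbinectedin, 7 of the 10 Notch genes rose and 1 fell. NRARP, HES4, NOTCH3, NOTCH1, HES1, DLL1 and HEY1 were higher than in control, NOTCH2 was lower, and the differences of JAG1 and JAG2 did not pass the test. The threshold for a call was an adjusted p under 0.05 (Benjamini-Hochberg, over all tested genes) in edgeR's quasi-likelihood test. Of all 16683 genes, 71.6% were called in this contrast, 36% higher and 35.7% lower, so a count of 8 of 10 is near the background. Of the 10 genes, 9 (all but JAG1) had lurbinectedin and control libraries that did not overlap, as did 83.2% of all tested genes. The median log2 fold change of the 10 genes was 0.65, beside 0.05 for all tested genes. TMM scaling places the bulk of the genes near 0, so rises and falls are relative to the other genes. They do not measure the amount of RNA per cell. Under scaling by library size alone, the median of all tested genes was -0.18.

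The receptors NOTCH1 and NOTCH3 rose while NOTCH2 fell. NOTCH2 was the receptor with the highest counts in control, at 342, 368 and 389.8 CPM, and stood at 68.6, 74.6 and 75.6 CPM with lurbinectedin. Every lurbinectedin library was far below every control library. NOTCH2 fell by 2.33 on the log2 scale (SE 0.12), to a level 5.02-fold lower, with an edgeR adjusted p of 1.5e-09. The gene (ENSG00000134250.20) spans chr1:119911553-120100779 on the minus strand of GRCh38. Near-identical NOTCH2NL genes share its sequence, so its reads are uncertain to that degree. None of the 4 copies had more than 39 counts in a library. These counts do not bound the uncertainty, because the handling of multi-mapping reads is not given.

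NOTCH1 was at 124, 126 and 141 CPM in control and at 245, 252 and 264 CPM with lurbinectedin. NOTCH3 was at 55.7, 52.5 and 59.5 CPM in control and at 117, 118 and 129.8 CPM with lurbinectedin. Both receptors were higher in each lurbinectedin library than in any control library, 1.95-fold for NOTCH1 and 2.18-fold for NOTCH3. The log2 fold change was 0.96 (SE 0.16; adjusted p 7.96e-05 in edgeR) for NOTCH1 and 1.12 (SE 0.15; adjusted p 1.35e-05 in edgeR) for NOTCH3. NOTCH1 (ENSG00000148400.13) lies at chr9:136494433-136546048 and NOTCH3 (ENSG00000074181.9) at chr19:15159038-15200995, both on the minus strand. Over the 12 libraries, NOTCH1 and NOTCH3 also had the most similar profile of any 2 of the Notch genes, with a root mean square difference of 0.11 between their centred log2 CPM.

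**Figure D1:**
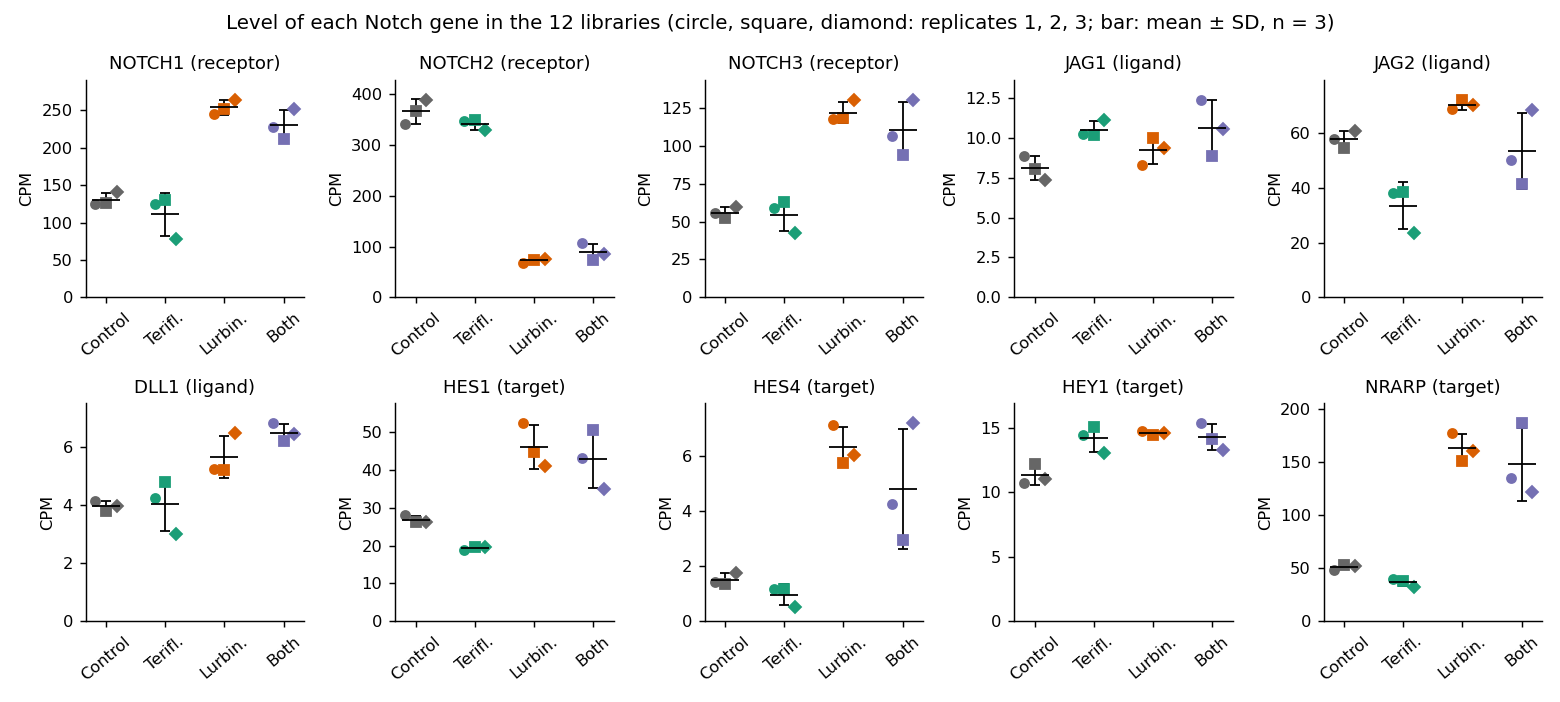
CPM of the 10 Notch genes (vertical axes, linear, from 0) in the 4 treatment groups (horizontal axes); circles, squares and diamonds are replicates 1, 2 and 3 and bars the mean ± SD. NOTCH2 drops from 342 to 389.8 CPM in control to 68.6 to 75.6 CPM with lurbinectedin, while NRARP climbs from 48.5 to 53.0 CPM to between 151 and 178 CPM.

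Receptor composition is best seen per transcript length, as TPM. The exonic length used is the union over all annotated isoforms, which understates genes with many isoforms, and for HEY1 it equals the genomic span. In control, NOTCH2 made up 52.7% ± 1.13 (SD, n = 3) of the summed TPM of the 4 receptors, NOTCH1 29.8% ± 0.43 and NOTCH3 17% ± 0.79. With lurbinectedin, NOTCH1 made up 54.7% ± 0.39 (SD, n = 3), NOTCH3 35% ± 0.58 and NOTCH2 9.89% ± 0.31. The leading receptor transcript thus changed from NOTCH2 to NOTCH1 in each of the 3 lurbinectedin libraries and likewise in each of the 3 combination libraries, where NOTCH1 made up 51.8%, 55% and 52.3%. NOTCH4 stayed under 1% in every library. The summed TPM of the receptors was 140.3 ± 8.59 in control and 95 ± 11.2 with lurbinectedin (SD, n = 3 each). TPM sums are not on the TMM scale of the CPM values, so these sums are not read as less receptor RNA. HEY1, called higher with lurbinectedin, had 8.29 TPM in control and 6.81 TPM with lurbinectedin. DLL1, also called higher, had 4.16 TPM in control and 3.80 TPM with lurbinectedin, and its TPM values overlapped.

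**Figure D2:**
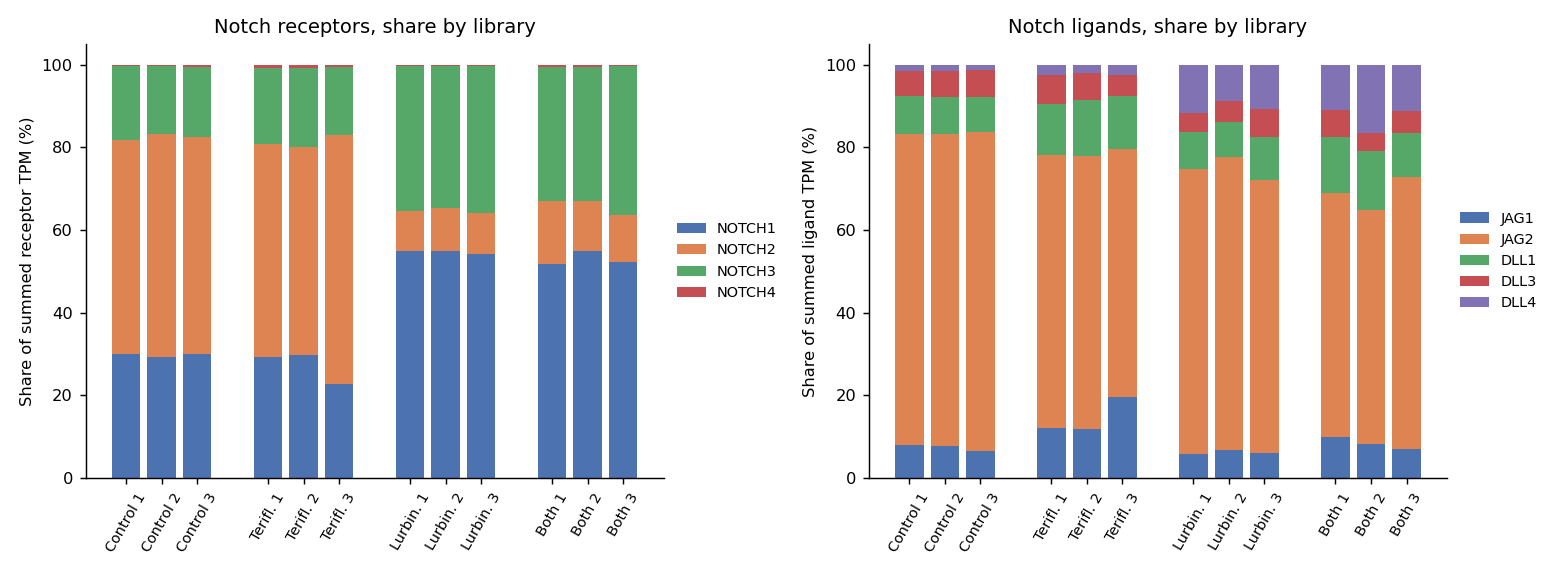
Share of each receptor in the summed TPM of NOTCH1 to NOTCH4 (percent) and of each ligand in the summed TPM of JAG1, JAG2, DLL1, DLL3 and DLL4 (percent), as stacked bars from 0 to 100%, 1 bar per library. NOTCH2 makes up 50.3% to 60.4% of receptor TPM without lurbinectedin and 9.67% to 15.3% with it, and JAG2 is the leading ligand throughout.

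Of the 3 ligands, DLL1 was called, and JAG1 and JAG2 were not. JAG2, a Jagged ligand on chr14:105140982-105168824 (ENSG00000184916.9, minus strand), was at 57.6, 54.6 and 60.7 CPM in control and at 68.5, 72.1 and 69.97 CPM with lurbinectedin. These groups did not overlap, but the log2 fold change of 0.28 (95% interval -0.12 to 0.69) did not pass the test (adjusted p 0.192 in edgeR). It passed with only the compared groups in the fit (adjusted p 0.000169 in edgeR) and without the 2 libraries of high mitochondrial share (0.00817). JAG1, at chr20:10637684-10673999 (ENSG00000101384.12, minus strand), was at 8.85, 8.02 and 7.35 CPM in control and at 8.29, 9.97 and 9.38 CPM with lurbinectedin. Its libraries overlapped, and its log2 fold change of 0.19 (95% interval -0.12 to 0.50) was not called and was -0.040 under scaling by library size alone. DLL1, a Delta-like ligand at chr6:170282206-170306565 (ENSG00000198719.9, minus strand), was at 4.12, 3.78 and 3.94 CPM in control and rose to 5.23, 5.20 and 6.47 CPM. Its log2 fold change was 0.52 (SE 0.17; adjusted p 0.0157 in edgeR), and the call was lost under scaling by library size alone (0.311), with no filter on low counts (0.0776), without lurbinectedin replicate 3 (0.0927) and without control replicate 2 (0.0555). DLL1 shares 370 exonic bases with FAM120B on the other strand, and since the use of strand in counting is not given in the sources used here, reads of the pair may be mixed. JAG2 and NRARP share exonic bases with genes of at most 4 counts.

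Per length, JAG2 made up 76.1% ± 1.03 of the summed TPM of 5 ligands in control and 68.7% ± 2.44 with lurbinectedin (SD, n = 3 each). The largest step among the ligands was that of DLL4, a Delta-like ligand best known from blood vessels that is not among the 10 genes. DLL4 was at 0.94, 0.84 and 0.75 CPM in control (78 counts in all) and at 8.58, 6.57 and 8.43 CPM with lurbinectedin (577 counts). It rose by 3.22 on the log2 scale (SE 0.20; adjusted p 7.06e-09 in edgeR), and its share of ligand TPM was 1.5% ± 0.19 in control and 10.4% ± 1.51 with lurbinectedin (SD, n = 3 each). The 3 endothelial markers summed to at most 0.078 CPM in those lurbinectedin libraries, against 0.42 to 0.57 CPM in control. DLL3 had 24 to 82 counts in a library, and its log2 fold change of 0.26 (95% interval -0.33 to 0.85) was not called.

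All 4 target genes rose under lurbinectedin, where 36% of all tested genes were called higher. Among genes of like genomic span the share was 50.9% to 56.9%, as set out below. NRARP, which binds the Notch intracellular domain with RBPJ and dampens the signal, was at 48.5, 53.0 and 51.9 CPM in control and at 178, 151 and 160.5 CPM with lurbinectedin. Its groups were far apart, with a log2 fold change of 1.67 (SE 0.15), a 3.19-fold rise, and an edgeR adjusted p of 1.77e-07. HES1, a basic helix-loop-helix repressor and the best known Notch target, was at 28.1, 26.2 and 26.2 CPM in control and at 52.4, 44.8 and 41.1 CPM with lurbinectedin. It rose by 0.78 on the log2 scale (SE 0.14; adjusted p 0.00015 in edgeR).

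HES4, a related repressor, was at 1.41, 1.34 and 1.76 CPM in control and at 7.12, 5.75 and 6.03 CPM with lurbinectedin. It had the largest rise of the 10 genes, 4.16-fold (log2 fold change 2.06, SE 0.31, adjusted p 4.5e-05 in edgeR). This rests on 40 to 59 counts a library in control and 147 to 166 with lurbinectedin. HEY1, a repressor of the Hairy-related family, was at 10.7, 12.2 and 11.1 CPM in control and at 14.7, 14.5 and 14.6 CPM with lurbinectedin. It was higher in each library by a small margin, with a log2 fold change of 0.37 (SE 0.12; adjusted p 0.0113 in edgeR). The HEY1 call was lost under scaling by library size alone (0.13, adjusted p 0.498 in edgeR), with no filter on low counts (0.204) and without control replicate 1 (0.0589).

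HES1 (ENSG00000114315.4, chr3:194136148-194138732, plus strand) and HES4 (ENSG00000188290.11, chr1:998962-1000172, minus strand) are short genes. So is NRARP (ENSG00000198435.4, chr9:137299631-137302271, minus strand). The promoters of the 3 target genes with the largest log2 rise are shown because those genes are textbook Notch targets and their DNA can be searched for the RBPJ motif. Each is the stretch of 250 bases before the gene's start in RefSeq (GRCh38.p14), read 5′ to 3′ along the gene, with capitals marking matches to the RBPJ motif GTGNGAA on either strand. The windows are chr3:194135898-194136147 for HES1, chr1:1000098-1000347 for HES4 and chr9:137302272-137302521 for NRARP.
HES1: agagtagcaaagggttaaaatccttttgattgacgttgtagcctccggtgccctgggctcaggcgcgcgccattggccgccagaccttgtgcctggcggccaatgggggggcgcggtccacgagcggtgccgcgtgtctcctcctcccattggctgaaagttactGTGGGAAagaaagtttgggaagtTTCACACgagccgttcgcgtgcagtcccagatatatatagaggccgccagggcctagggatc
HES4: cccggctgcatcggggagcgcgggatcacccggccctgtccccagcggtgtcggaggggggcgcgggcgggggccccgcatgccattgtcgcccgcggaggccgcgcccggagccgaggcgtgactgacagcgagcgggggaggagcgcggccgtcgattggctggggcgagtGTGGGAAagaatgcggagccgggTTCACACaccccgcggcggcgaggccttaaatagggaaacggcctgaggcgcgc
NRARP: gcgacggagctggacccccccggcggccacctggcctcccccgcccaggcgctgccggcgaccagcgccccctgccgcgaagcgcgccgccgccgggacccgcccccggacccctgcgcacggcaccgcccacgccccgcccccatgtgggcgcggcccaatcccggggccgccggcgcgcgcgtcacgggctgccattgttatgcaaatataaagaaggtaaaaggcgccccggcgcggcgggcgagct
In HES1 the 2 matches begin 85 and 62 bases before the start and in HES4 77 and 54 bases before it. Both genes hold GTGGGAA followed by TTCACAC, the same motif on the other strand, with 16 bases between them. Among the 35116 promoters of the table, GTGNGAA facing TTCNCAC with a gap of 16 bases occurred in 3 (0.00854%), those of HES1, HES4 and ITIH4. The arrangement was looked for after the sequences were seen and the gap was taken from HES1, so HES1 and HES4 were bound to be counted. With any gap of 0 to 30 bases the facing pair occurred in 30 promoters (0.0854%). At least 1 GTGNGAA match occurred in 11.6% of promoters and at least 2 in 0.906%. NRARP had no match in this window, which says only that these letters are not in it. Windows of 8 of the 10 genes were searched, all but DLL1 and HEY1, and HES1 and HES4 were the ones among the 8 with a GTGNGAA match. The motif CACNAG, bound by HES proteins, was found on either strand 3 times in the HES1 window and 1 time in that of NOTCH3, beside 32.0% of all promoters with at least 1 match. The HES1 match nearest the start lies 58 bases before it and overlaps the second RBPJ match.

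Long genes were lower than short ones with lurbinectedin against control, so each Notch gene was set beside tested nuclear genes of like genomic span. Over 5 quintiles of span, shortest first, the median log2 fold change with lurbinectedin was 0.69, 0.62, 0.28, -0.36 and -1.86. NOTCH2, which spans 189 kb, falls in the longest quintile, and its change of -2.33 was at percentile 39.2 of that quintile. NOTCH1 (51.6 kb) and NOTCH3 (42.0 kb) are in the fourth quintile, whose median was below 0, and their rises were at percentiles 91.7 and 93.4 of it. JAG1 (36.3 kb) was at percentile 72.5 of that quintile.

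The target genes belong to the 2 shortest quintiles, in which 50.9% and 56.9% of tested nuclear genes were called higher with lurbinectedin. HES4 (1.21 kb), HES1 (2.58 kb) and NRARP (2.64 kb) are in the shortest quintile and were at its percentiles 84.7, 52.7 and 79.2, so the rise of HES1 was close to the median of genes as short as itself. HEY1 (ENSG00000164683.18, chr8:79762371-79767857, minus strand, 5.49 kb) was at percentile 38.9 of the second quintile, below that quintile's median. JAG2 (27.8 kb) and DLL1 (24.4 kb) were at percentiles 50.5 and 61.8 of the third quintile. The places of genes within a quintile are a description of these libraries and carry no test. With no filter on low counts, the medians of the shortest and the longest quintile were 0.22 and -1.59.

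**Figure D3:**
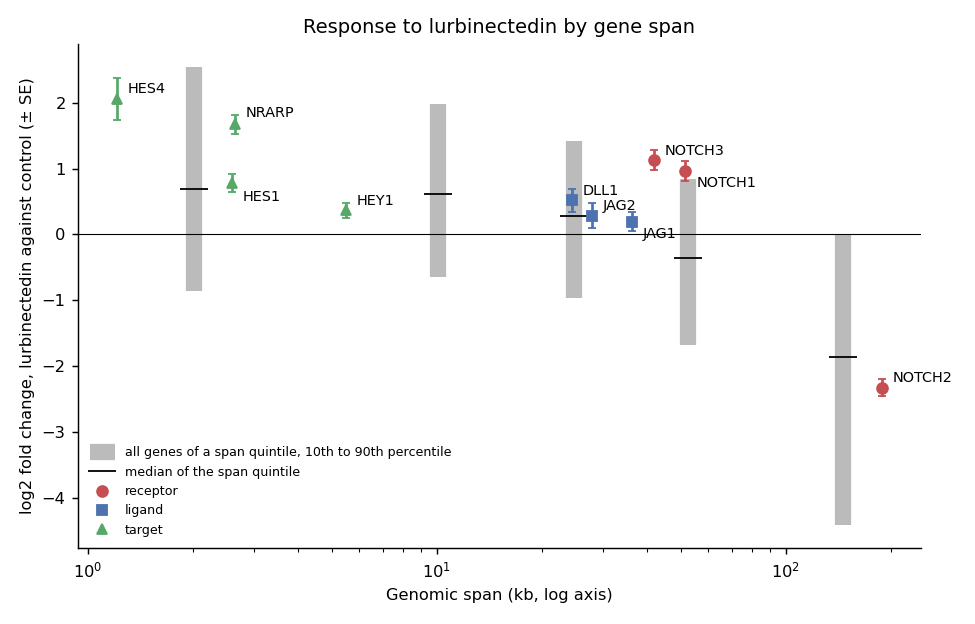
Log2 fold change with lurbinectedin against control (vertical axis) by genomic span in kb (horizontal axis, log scale) for the 10 Notch genes (labelled points, bars ± SE) over the median and the range from the tenth to the ninetieth percentile of all tested nuclear genes in each quintile by span. NOTCH1 (0.96) and NOTCH3 (1.12) sit far above the median of -0.36 for their quintile, and NOTCH2 (-2.33) lies near the -1.86 of the longest genes.

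With teriflunomide alone, JAG2 fell and the other 9 genes did not pass the test. Of all tested genes, 6.01% were called (3.88% higher and 2.13% lower), so 1 of 10 is near the background. JAG2 was at 57.6, 54.6 and 60.7 CPM in control and at 38.2, 38.5 and 23.5 CPM with teriflunomide. All 3 teriflunomide libraries lay below the control libraries, and replicate 3, of high mitochondrial share, was the lowest. The log2 fold change was -0.79 (SE 0.19; adjusted p 0.0307 in edgeR), at percentile 1.71 among genes of its span quintile. The call was lost under scaling by library size alone (adjusted p 0.141 in edgeR), with only the compared groups in the fit (0.0838) and without control replicate 1, 2 or 3 (0.104, 0.0874 and 0.123). Without teriflunomide replicate 3 and combination replicate 2, JAG2 was among 4 called Notch genes. Calls over all genes also went up there, to 2757 from 1002 in the full set.

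The other members of those 4 were HES1, NRARP and HEY1. HES1 was at 18.9, 19.6 and 19.7 CPM with teriflunomide, below each control library, and its log2 fold change of -0.47 (95% interval -0.76 to -0.17) missed the threshold in the full set (adjusted p 0.0602 in edgeR) and passed without the 2 libraries (0.00535). NRARP was at 39.5, 37.8 and 32.6 CPM, also below every control library, with -0.48 (95% interval -0.79 to -0.17, adjusted p 0.0645 in edgeR), and -0.40 (0.00228) without them. HEY1 lay above control, at 14.4, 15.1 and 13.0 CPM against 10.7 to 12.2 CPM in control, with 0.32 (adjusted p 0.105 in edgeR), and 0.38 (0.0144) without them. DESeq2 called HES1 (adjusted p = 0.0141) and NRARP (0.0252) beside JAG2 on all 12 libraries, where it called 1890 of all 16683 genes. HES4, at 1.17, 1.17 and 0.51 CPM, gave -0.65 with a 95% interval of -1.41 to 0.12.

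The receptors did not pass the test with teriflunomide in either direction. NOTCH2 was at 347, 349 and 329 CPM, close to the control range of 342 to 389.8 CPM, and the 95% interval of its log2 fold change was -0.36 to 0.15. NOTCH1 was at 125, 130.2 and 77.6 CPM and NOTCH3 at 58.6, 63.0 and 42.1 CPM. For both, replicate 3 was the library below the others, and the log2 fold change of NOTCH3 was -0.033 with it and 0.12 without the 2 libraries of high mitochondrial share. JAG1 was at 10.2, 10.2 and 11.1 CPM, above every control library, with 0.38 (95% interval 0.071 to 0.69, adjusted p 0.127 in edgeR). DLL1 was at 4.25, 4.79 and 3.0 CPM and overlapped the control libraries. Of all tested genes, 36.8% had groups that did not overlap in this comparison, and so did 6 of the 10 Notch genes, JAG1, JAG2, HES1, HES4, HEY1 and NRARP.

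**Figure D4:**
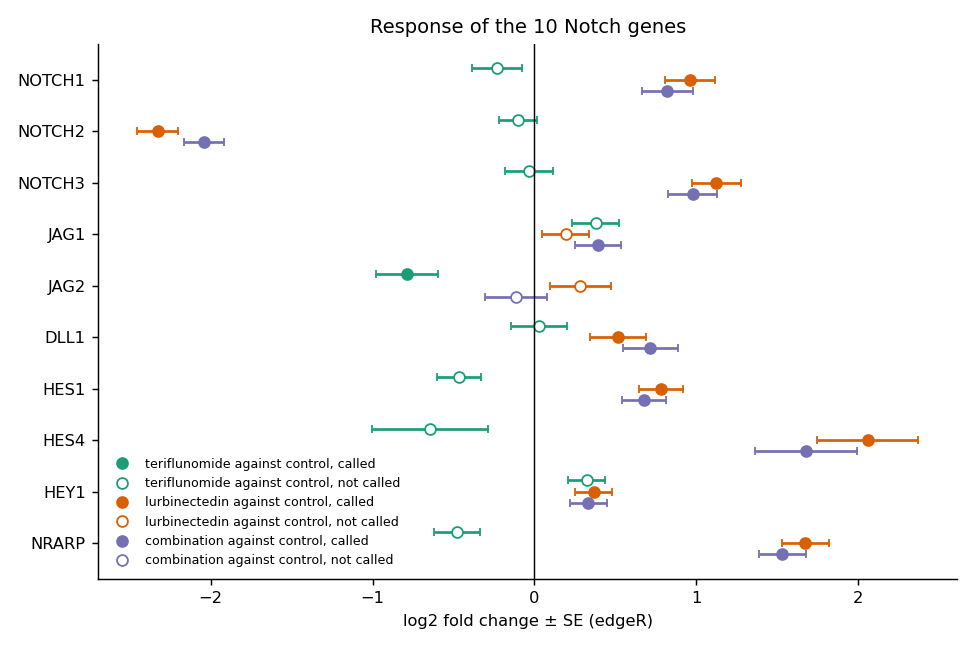
Log2 fold change against control (horizontal axis) of the 10 Notch genes with teriflunomide, lurbinectedin and the combination; bars are ± SE from the edgeR fit and filled points passed the adjusted p threshold. NOTCH2 is the 1 gene far below 0 with lurbinectedin (-2.33) and the combination (-2.04), and JAG2 the 1 filled point with teriflunomide (-0.79).

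With both drugs, 8 of the 10 genes rose against control and 1 fell, where 68.4% of all tested genes were called (34.1% higher and 34.4% lower). NOTCH2 was at 107, 73.8 and 85.8 CPM and its log2 fold change was -2.04 (SE 0.12; adjusted p 5.92e-09 in edgeR). NRARP was at 135, 187 and 122 CPM and gave a log2 fold change of 1.53 (SE 0.15; adjusted p 5.1e-07 in edgeR). Both stayed clear of every control library, and the combination libraries were spread more widely than those of lurbinectedin alone.

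Receptors NOTCH1 (227, 212 and 252 CPM) and NOTCH3 (106, 93.8 and 130.3 CPM) rose by 0.82 and 0.98 on the log2 scale (edgeR adjusted p = 0.000342 and 5.51e-05). Among the targets, HES1 (43.2, 50.6 and 35.1 CPM) rose by 0.68 (0.000539) and HES4 (4.24, 2.95 and 7.18 CPM) by 1.68 (0.000312). HEY1 (15.3, 14.2 and 13.3 CPM) rose by 0.33 (0.0193), a call lost under scaling by library size alone (0.399), with no filter on low counts (0.242), and without control replicate 1 (0.0896) or 3 (0.0729) or combination replicate 1 (0.0743). Of the 10 genes, 9 (all but JAG2) had combination and control libraries that did not overlap, as did 77.2% of all tested genes.

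Among the ligands, DLL1 was at 6.81, 6.20 and 6.45 CPM and rose by 0.72 (adjusted p 0.00202 in edgeR), and under scaling by library size alone its adjusted p was 0.058. JAG1 was at 12.4, 8.85 and 10.5 CPM and rose by 0.39 (adjusted p 0.0259 in edgeR). The JAG1 call was lost under scaling by library size alone (0.303), with no filter on low counts (0.152), and without control replicate 2 (0.0714) or 3 (0.113) or combination replicate 1 (0.126). JAG2 was at 50.1, 41.2 and 68.3 CPM and overlapped the control libraries, with -0.11 (95% interval -0.52 to 0.29).

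What teriflunomide added to lurbinectedin was not called for any of the 10 genes. In edgeR, 0 of all 16683 genes were called between the combination and lurbinectedin, a background of 0%, while 2599 had an unadjusted p under 0.05 and DESeq2 called 584. NOTCH2 was the 1 Notch gene with an unadjusted p under 0.05, at a log2 difference of 0.28 (95% interval 0.027 to 0.54, adjusted p 0.285 in edgeR), and DESeq2 called 0 of the 10. For JAG2 every combination library was below every lurbinectedin library (23.7% of all tested genes did not overlap here), at a log2 difference of -0.40 (95% interval -0.81 to 0.010, adjusted p 0.33 in edgeR). The 95% intervals of the other 8 reached from -1.0 for HES4 to 0.56 for DLL1. Without teriflunomide replicate 3 and combination replicate 2, NOTCH2 (0.40, adjusted p 0.00246 in edgeR) and NRARP (-0.34, adjusted p 0.00473 in edgeR) were called. In that setting 3640 of all genes were called, so the background of 0% does not apply to these 2 calls.

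The interaction, which is the effect of teriflunomide with lurbinectedin minus its effect without it, was called for 0 of the 10 genes and for 43 of all genes (0.258%). HEY1 (-0.36, 95% interval -0.70 to -0.0077) and NOTCH2 (0.39, 95% interval 0.023 to 0.75) had unadjusted p-values under 0.05, with edgeR adjusted p of 0.471 and 0.442, and DESeq2 called 0 of the 10. Without the 2 libraries of high mitochondrial share, NOTCH2 was called (0.48, adjusted p 0.013 in edgeR), among 1839 of all genes.

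Against teriflunomide alone, the combination was higher for 7 genes and lower for NOTCH2, where 70.9% of all genes were called (35.2% higher and 35.8% lower). NRARP differed by 2.01 on the log2 scale (SE 0.15), HES4 by 2.32 (SE 0.33) and HES1 by 1.14 (SE 0.14), with edgeR adjusted p of 3.76e-08, 2.43e-05 and 4.87e-06. JAG2 was higher by 0.67 (SE 0.19; adjusted p 0.00631 in edgeR), and under scaling by library size alone its adjusted p was 0.0775. JAG1 and HEY1 differed by 0.015 and 0.0090, and both values were below 0 under scaling by library size alone (-0.054 and -0.087).

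Per length, the order of the 10 genes in control began with NRARP at 77.8 ± 1.71 TPM and NOTCH2 at 73.9 ± 4.20 TPM, whose libraries overlapped (SD, n = 3 for each value here). HES1 (52.4 ± 3.38), NOTCH1 (41.8 ± 3.05), JAG2 (36.3 ± 2.51), NOTCH3 (23.9 ± 1.87), HEY1 (8.29 ± 0.36) and HES4 (5.41 ± 0.85) followed without overlap between neighbours. DLL1 (4.16 ± 0.29) and JAG1 (3.50 ± 0.39) came last and overlapped. With lurbinectedin the order was NRARP (158 ± 11.9), HES1 (57.1 ± 3.48) and NOTCH1 (52.0 ± 5.77), the last pair overlapping, then NOTCH3 (33.3 ± 4.31) and JAG2 (28.1 ± 2.28), which also overlapped. HES4 (14.4 ± 1.24) then stood above NOTCH2 (9.40 ± 1.11), which had moved from the second place to the seventh. TPM counts mitochondrial transcripts in its total, and so a library with many of them has lower TPM for every other gene, which CPM on TMM effective sizes does not show to that degree.

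Genes whose centred log2 CPM over the 12 libraries differed least from each target were sought among tested genes with a mean of at least 5 CPM. For HES1 they were SNHG10 and RBFA (root mean square difference 0.10 and 0.11), for NRARP CCDC137 and ZNF778 (0.10 and 0.11), and for HES4 ZNF707 was among them (0.19). For HEY1 they were MMADHC and SLX4 (0.071 and 0.076). CCDC137, for example, was at means of 27.0, 22.0, 96.6 and 80.2 CPM in control, teriflunomide, lurbinectedin and combination, where NRARP was at 51.1, 36.7, 163 and 148 CPM. HEY1, which varied least of the 4 targets, had the closest matches.

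The rest of the pathway was read from 8 lists of 86 genes, of which 76 were tested. With lurbinectedin, 19 of the 76 rose, 34 fell and 23 were not called, with a median log2 fold change of -0.22, beside 36% higher and 35.7% lower over all tested genes. Of the 76, 44 lie in the 2 longest span quintiles, in which 49.1% and 83.7% of tested nuclear genes were called lower, against 12.5% and 12.3% in the 2 shortest. The counts of the lists below carry no test and are read beside these shares. Of the 8 other HES, HEY and ID genes, repressors and inhibitors of helix-loop-helix factors, 5 rose and 0 fell, with a median of 1.18. None of the 8 is in the 2 longest quintiles, and in the 2 shortest 50.9% and 56.9% of genes were called higher, which is close to 5 of 8. ID3 (3.52), ID1 (2.78) and HES6 (3.0) had the largest log2 rises of this list, and HEY2 rose by 0.80. HES6 was at 2.78, 2.77 and 3.82 CPM in control and at 25, 24 and 26.3 CPM with lurbinectedin. HEYL (-0.29, 95% interval -0.76 to 0.18) was not called, and HES5, a Notch target of neural cells, had 0 counts in all 12 libraries.

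Of 11 coactivators of the nuclear complex, 8 fell and 1 rose, with a median of -1.51. Of the 11, 9 are in the 2 longest quintiles, so 8 of 11 lies between the shares called lower in those quintiles. RBPJ itself, which spans 272 kb, was at 137, 142 and 131 CPM in control and at 36.2, 41.3 and 37.8 CPM with lurbinectedin. It fell by 1.83 on the log2 scale (SE 0.15; adjusted p 1.06e-07 in edgeR). MAML3, a Mastermind-like coactivator, had 869 counts over the control libraries and 10 over the lurbinectedin libraries, with a fitted log2 fold change of -6.05 that depends on the prior count. CDK8 (-2.26) and CREBBP (-1.71) fell too, while MAML1 (0.18, adjusted p 0.0865 in edgeR) was not called. MAML1 was called without the 2 libraries of high mitochondrial share (0.17, adjusted p 0.0252 in edgeR), with only the compared groups in the fit (0.0127) and with a filter of at least 1 CPM in 3 libraries (0.0307), and was at -0.053 under scaling by library size alone. Of 17 corepressors, which hold Notch targets silent with RBPJ, 10 fell and 2 rose, among them CTBP2 (-2.36) and NCOR1 (-2.39), and 15 of the 17 are in the 2 longest quintiles.

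At the membrane, 3 of 7 cleavage genes fell, 0 rose and 4 were not called, near the share of 35.7% lower over all genes, and 4 of the 7 are in the 2 longest quintiles. ADAM10, the protease of the first cut, was at 126, 134 and 122 CPM in control and at 19.8, 26.3 and 26.5 CPM with lurbinectedin, a fall of 2.39 on the log2 scale (SE 0.16; adjusted p 1.09e-08 in edgeR). ADAM17, a related protease, fell by 0.47. Of 7 maturation and glycosylation genes, 4 rose and 0 fell, among them the Fringe glycosyltransferases LFNG (1.86) and RFNG (0.96) and the glucosyltransferase POGLUT1 (0.84). Of these 7, 1 is in the 2 longest quintiles, and 44.6% to 56.9% of tested nuclear genes in the shorter quintiles were called higher. The RFNG call was lost under scaling by library size alone (adjusted p 0.0895 in edgeR). Of 6 genes of ligand endocytosis, MIB2 rose (2.40) while MIB1 (-1.68) and EPN2 (-1.03) were among 3 that fell. Of these 6, 4 are in the 2 longest quintiles.

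For receptor turnover, 4 of 13 genes rose and 7 fell, with a median of -0.92, and 10 of the 13 are in the 2 longest quintiles. NUMB, an adaptor that promotes Notch receptor degradation, fell by 3.15 while its paralog NUMBL rose by 2.13. AAK1, a kinase of endocytosis with a span of 216 kb, fell by 2.79. FBXW7, the ubiquitin ligase subunit that targets the intracellular domain for destruction, has a like span of 216 kb and rose, from 28.9, 31 and 30.9 CPM to 117, 114 and 109 CPM (1.90, SE 0.15, adjusted p 7.19e-08 in edgeR). Among other receptors and ligands, 2 of 7 rose (DLL4 and DLK2, 0.92) and 3 fell, with MFAP5 at -1.47, and NOTCH4 (-0.15, 95% interval -0.66 to 0.35) was not called. MIB2, ADAM17, BHLHE40, MAML3, DLK2, CTBP2, NCOR1, EPN2, RFNG and NOTCH4 share exonic bases with another gene that has counts, so their reads may be mixed.

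**Figure D5:**
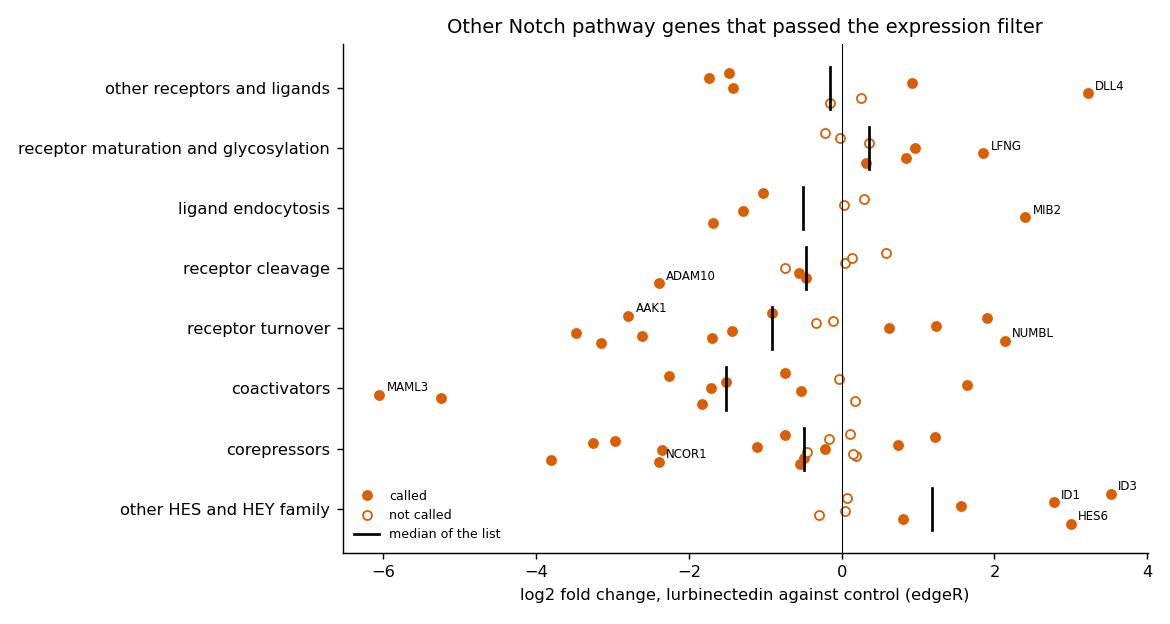
Log2 fold change with lurbinectedin against control (horizontal axis) of the 76 tested genes of 8 Notch pathway lists (rows); points are genes, filled where called, and bars are list medians. The coactivator median is -1.51 and that of the other HES, HEY and ID genes 1.18.

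With teriflunomide, 2 of the 76 pathway genes rose and 2 fell, near the background of 3.88% higher and 2.13% lower over all tested genes. KAT2B, a histone acetyltransferase, was at 7.77, 6.45 and 7.26 CPM in control and at 11.8, 14.6 and 17.2 CPM with teriflunomide, a log2 rise of 1.02 (SE 0.20; adjusted p 0.0123 in edgeR). BHLHE40, a helix-loop-helix repressor, fell by 0.67 (SE 0.12; adjusted p 0.00551 in edgeR), from 14.5, 14.5 and 14.0 CPM to 9.91, 8.95 and 8.18 CPM. In both genes no teriflunomide library overlapped a control library. NCSTN, a gamma-secretase subunit, rose by 0.38 (adjusted p 0.0418 in edgeR) and NEURL1, a ubiquitin ligase for ligands, fell by 1.29 (adjusted p 0.0401 in edgeR) on 34 counts against 80. These last 2 calls and that of KAT2B were lost under scaling by library size alone (edgeR adjusted p of 0.241, 0.093 and 0.0704), as were those of NCSTN and NEURL1 without any 1 of the control replicates. KAT2B was also lost without control replicate 2 (0.0723) or 3 (0.0652), NEURL1 without teriflunomide replicate 1 (0.0835) or 3 (0.0669), and NCSTN without teriflunomide replicate 2 (0.0504). With only the compared groups in the fit, NCSTN (0.09999) and NEURL1 (0.0925) were not called, nor was NCSTN with no filter on low counts (0.114).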

How the data were processed

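Each of the 12 files holds raw read counts per gene, deposited by the authors with exon coordinates and exonic length in the layout of featureCounts. The submitters' processing notes name fastp 0.23.2, STAR 2.7.9, Subread, featureCounts and hg38, and per the labels' protocols the libraries were made with a kit for polyadenylated RNA. Annotation release, use of strand and multi-mapping reads are not given in the sources used here. GENCODE 29 holds 37318 of the identifiers in the same version and places each at the deposited coordinates, and a table of gene names matched 60463 (99.7%) of 60649 identifiers.

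From the counts, edgeR 4.0.16 (R 4.3.3) was run with filterByExpr, TMM and a robust quasi-likelihood fit of 4 group means to all 12 libraries, and 6 contrasts were tested with Benjamini-Hochberg adjustment over 16683 genes. The biological coefficient of variation was 14.5%. SEs were derived from the F statistic and 95% intervals from the t distribution. TPM used the deposited exonic length. Replicates of a group differed by more than sampling noise. The method was tested on simulated data. DESeq2 1.42.0, the TREAT test of edgeR and the other alternatives are in the closing section. Low counts limit precision.

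The 10 genes, the pathway and marker lists and the rules were chosen with earlier results of these data known. Named genes are the 10, NOTCH4, DLL3, DLL4, HES5, HES6, HEY2, HEYL, RBPJ and MAML1 always, up to 3 called genes with the smallest adjusted p per pathway list and contrast, and the 2 closest profiles per target. Some genes that met the rule are not reported here. FBXW7 met the rule in the combination contrast, and is given for lurbinectedin too. Promoters were taken from RefSeq.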

Additional observations from a re-analysis of the deposited data

How the results depend on the processing

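With teriflunomide, 1002 genes and 1 Notch gene were called, against 265 and 0 under scaling by library size alone, 1800 and 3 with no expression filter, 1890 and 3 in DESeq2, 33 and 0 in TREAT against a 1.5-fold change, and 283 and 0 with only the compared groups in the fit. Without teriflunomide replicate 3 and combination replicate 2 they were 2757 and 4, and leaving out 1 library at a time gave 216 to 1555 and 0 to 3. In TREAT, 5 Notch genes were called with lurbinectedin, 4 with the combination (7267 genes) and 7854 genes between the combination and teriflunomide. Leaving out 1 library at a time gave 7 to 8 Notch genes with lurbinectedin and 7 to 9 with the combination. Between the combination and lurbinectedin, 612 genes were called with no filter, 584 in DESeq2, 94 with only the compared groups and 3640 (2 Notch genes) without the 2 libraries, and 0 to 259 with 1 library left out. The interaction was called for 43 genes, and for 6 with library size only, 195 with no filter, 256 in DESeq2, 1 in TREAT, 1839 (1 Notch gene) without the 2 libraries and 2 to 616 with 1 library left out. The causes were not tested.

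Replicate numbers did not pair the libraries: of 18 same-numbered pairs, 4 had correlated deviations over 0.1 (range -0.55 to 0.25), and 2 of 12 libraries correlated best with their own number. With the replicate block, 415 genes and 0 Notch genes were called with teriflunomide (adjusted p of 0.0768 for JAG2, 0.0604 for NCSTN and 0.0850 for NEURL1), and 8 genes in the interaction.

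Scaling by library size alone moved the median of all genes with lurbinectedin from 0.05 to -0.18, and the share of higher genes among those called from 50.2% to 39.2% (49.8% to 41.0% with the combination). Log2 fold changes that turned sign were not called, and the largest of them in the full set was 0.27, for HES4 in the interaction. With library size only they were DLL1 with teriflunomide (-0.032), JAG1 (-0.040) and MAML1 (-0.053) with lurbinectedin, HEY1 between the combination and lurbinectedin (0.034), JAG1 (-0.054) and HEY1 (-0.087) between the combination and teriflunomide, and NOTCH3 in the interaction (0.030). With no filter, JAG1 (-0.016) and HEY1 (-0.026) turned between the combination and teriflunomide. Without the 2 libraries, NOTCH3 turned with teriflunomide (0.12), JAG2 with the combination (0.032), HEY1 between the combination and teriflunomide (-0.051) and NOTCH1 in the interaction (-0.046). With 1 or both of those libraries or any other left out, the ranges were -0.12 to 0.19 for DLL1 and -0.15 to 0.12 for NOTCH3 with teriflunomide, -0.34 to 0.033 for JAG2 with the combination, -0.080 to 0.016 for HEY1 and -0.23 to 0.023 for HES1 between the combination and lurbinectedin, -0.10 to 0.16 for JAG1 and -0.056 to 0.057 for HEY1 between the combination and teriflunomide, and -0.26 to 0.0036 for NOTCH3, -0.10 to 0.22 for NOTCH1 and -0.16 to 0.52 for HES4 in the interaction.

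Of 1010 recomputed log2 fold changes of the 10 genes, 930 kept their direction and side of the threshold, 36 lost a call, 14 gained one and 30 turned sign. Counts are low for HES4, DLL1, DLL3, DLL4 and NEURL1, which limits their precision.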
